A study of Mus musculus with 19 samples.

Results

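The isoforms that genes used in layer 4 were compared with those used in layer 6b of the primary somatosensory cortex (S1) of the mouse. The measure was the share of a transcript, its FPKM as a percent of the summed FPKM of all transcripts listed for its gene in the same library. FPKM counts fragments scaled for the length of the transcript and for the number of fragments mapped in the library. A transcript was taken when it was listed in both libraries of layer 4, B1 and B2, and in the library of layer 6b, F, and when its gene had 2 or more such transcripts. This left 12151 transcripts of 4863 genes, out of 46893 transcripts of 24094 genes listed in at least 1 of the 7 S1 libraries. Of these genes 3241 had exactly 2 such transcripts and 1622 had 3 or more, with at most 9.

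The study dissected S1 of male C57BL/6 mice (C57BL/6J in the methods of the study), 56 days old, into 6 segments from the surface to the white matter and sequenced polyadenylated RNA from both fragment ends. B1 and B2 each held RNA of the 4 mice of a litter from the segment that is mostly layer 4, and F held RNA pooled from 8 mice from the segment that is mostly layer 6b. None of the mice carried an allele or received a treatment. The libraries A (layers 1 to 3), C and D (upper and lower layer 5) and E (layer 6), each of 8 pooled mice, are used to show where other segments lay. F has no replicate, so that the spread between libraries is known for layer 4 alone, with n = 2.

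One gene can give several messenger RNAs by starting at different promoters, by joining different exons or by ending at different sites, and the proteins made from them can differ in domains, in binding partners or in where they act. Neurons and glia are known to choose different isoforms of many adhesion, cytoskeletal and channel genes. Layer 4 receives sensory input from the thalamus, while layer 6b is a thin sheet of neurons above the white matter, remaining from the embryonic subplate, with many myelinated fibres around it.

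The 3 libraries fitted their labels. The layer 4 markers Rorb, Rspo1 and Scnn1a summed to 50.8 and 42.7 FPKM in B1 and B2 and to 3.499 FPKM in F, and the layer 6b markers Ctgf, Cplx3 and Nxph4 summed to 3.91 and 4.07 FPKM in layer 4 and to 373 FPKM in F. F also held far more oligodendrocyte RNA. All 9 oligodendrocyte markers were higher in F, with a summed level of 12580 FPKM against 846 and 856 FPKM, and none was at 0 in any of the 3 libraries. All 7 microglial markers were higher too (132 against 85.0 and 75.1 FPKM), as were 4 of 6 astrocyte markers (630 against 458 and 470 FPKM) and 7 of 8 striatal markers (101 against 48.7 and 44.2 FPKM), while 5 of 7 endothelial markers were lower (35.4 against 50.0 and 45.1 FPKM). The part of this difference in cell types in the shifts of isoforms was not tested, and fewer cells of a type cannot be told apart from less RNA per cell in such tissue. Depth estimated from coverage, for reads of 50 nt, was 49.2 M fragments in B1, 75.4 M in B2 and 55.8 M in F. The mean insert between the reads of a pair was longer in B1 (239 nt) than in B2 (193 nt) and F (184 nt), and part of F was read with 75 nt, which also makes its estimate of depth too high. The part of these differences in the shares was not tested, and read length cannot be told apart from the layer.

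Over all transcripts, layer 6b was no farther from layer 4 than the 2 libraries of layer 4 were from each other. The median distance between shares was 8.27 percentage points from F to B1, 8.44 points from F to B2 and 8.48 points from B1 to B2. The same held for the 6086 precise transcripts, those whose widest 95% confidence interval in the 3 libraries was at most 50% of their mean FPKM. There the medians were 8.17, 8.44 and 8.66 points, and 42.4%, 43.4% and 44.1% of these transcripts differed by 10 points or more. F lay closer to the deep segments, at a median of 5.28 points from E, 5.88 points from C and 5.93 points from D, and farthest from A at 12.9 points. A, C, D, E and F were pooled from the same 8 mice, while B1 and B2 each hold a single litter of them. These distances are therefore not of the same kind, and layer cannot be told apart from mice in them.

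**Figure D1:**
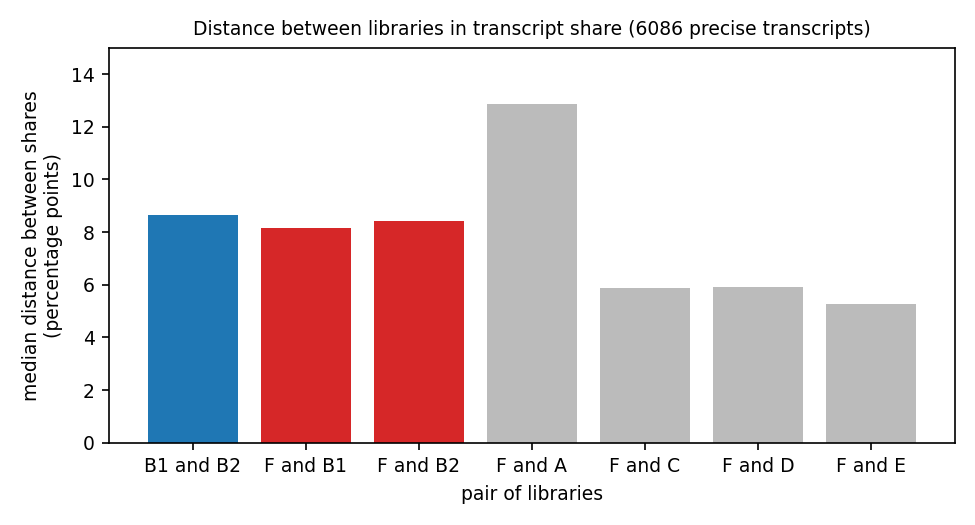
Median distance between the shares of 6086 precise transcripts (vertical axis, percentage points) for 7 pairs of S1 libraries (horizontal axis); bars start at 0. The pair of layer 4 libraries (blue, 8.66 points) lies as high as F against either of them (red, 8.17 and 8.44 points), while E, C and D lie closer to F (grey).

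A shift was counted only where F stood on the same side of both B1 and B2. F also had to be farther from the nearer of them than they were from each other. Such transcripts are called apart. Apart were 4059 transcripts (33.4% of 12151), 2021 with a higher share in F (16.6%) and 2038 with a lower share (16.8%). If the 3 libraries were interchangeable, the rule would mark any given library in 1 of 3 transcripts. This count is thus near what the rule gives without any difference between layers. The same count with B1 or B2 as the lone library was not made. A stricter set was both precise and apart by 10 points or more from the nearer layer 4 library. Among the precise transcripts 1965 were apart (32.3%), also near 1 of 3. The stricter set held 998 transcripts (8.21% of 12151, and 16.4% of the precise ones) of 810 genes (16.7%), of which 447 had a higher share in F (3.68%) and 551 a lower share (4.53%). In this set the median distance to the nearer library was 16.7 points, and the median between B1 and B2 was 4.97 points. The rule had required the first distance to exceed the second in each transcript, so that the order of these medians was given by the choice. Over all precise transcripts the median was 8.66 points between B1 and B2, against 8.17 points from F to B1 and 8.44 points from F to B2. In the stricter set 91 transcripts were apart by 30 points or more, and the largest distance was 61.8 points. No transcript passed a limma test of its log2 ratio to the rest of its gene at an adjusted p of 0.05. The smallest adjusted p was 0.735, and 700 transcripts (5.76%) had an unadjusted p under 0.05. With 3 libraries that test has 1 residual degree of freedom, so that the shifts below are descriptions of these libraries.

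A transcript that was not listed in a library can shift the shares of all others of its gene. In 2153 genes (44.3%) the transcripts listed in all 3 libraries held at least 99% of the FPKM in each. Among their 4921 transcripts 449 were apart by 10 points (9.12%), 208 with a higher and 241 with a lower share in F, in 312 genes. Map4, Bin1, Nfasc, Gphn, Gria4, Rcan2 and Srsf6, described below, are such genes.

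The genes of AMPA receptors, the channels that carry most fast excitatory transmission, gave a shift between alternative exons. Each subunit gene holds a pair of neighbouring exons, named flip and flop, of which a transcript takes either, and receptors with the flip exon are known to desensitise more slowly. The pairs are shown because the transcripts compared here differ in them. They were read from the GENCODE M21 transcripts (GRCm38), and capitals mark bases that differ between the exons of a pair. The exons of Gria4 lie on the minus strand at chr9:4432773-4432887 (flop) and chr9:4427030-4427144 (flip) and share 84 of 115 bases.
Gria4 flop: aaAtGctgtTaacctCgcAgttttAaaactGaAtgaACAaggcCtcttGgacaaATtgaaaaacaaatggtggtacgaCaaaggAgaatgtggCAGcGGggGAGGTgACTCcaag
Gria4 flip: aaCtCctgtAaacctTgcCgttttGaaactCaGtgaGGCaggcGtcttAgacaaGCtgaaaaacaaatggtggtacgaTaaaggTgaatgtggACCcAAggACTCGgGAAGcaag
The exons of Gria2 lie on the minus strand at chr3:80691320-80691434 (flop) and chr3:80690404-80690518 (flip) and share 79 of 115 bases.
Gria2 flop: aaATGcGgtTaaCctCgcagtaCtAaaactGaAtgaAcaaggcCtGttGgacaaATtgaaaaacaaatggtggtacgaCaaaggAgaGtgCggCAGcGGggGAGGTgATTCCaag
Gria2 flip: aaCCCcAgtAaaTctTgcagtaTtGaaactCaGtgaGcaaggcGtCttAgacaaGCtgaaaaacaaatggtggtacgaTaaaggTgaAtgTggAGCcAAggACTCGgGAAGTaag
The exons of Gria1, on the plus strand at chr11:57309769-57309883 (flop) and chr11:57310608-57310722 (flip), also share 79 of 115 bases.
Gria1 flop: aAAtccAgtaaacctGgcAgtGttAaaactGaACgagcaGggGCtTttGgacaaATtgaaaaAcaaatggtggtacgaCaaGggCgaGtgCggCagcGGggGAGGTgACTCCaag
Gria1 flip: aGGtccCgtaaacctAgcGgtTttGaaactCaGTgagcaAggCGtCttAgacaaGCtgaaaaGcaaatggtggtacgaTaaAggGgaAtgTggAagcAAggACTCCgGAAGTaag

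The flip share was higher in F in all 3 of these genes. For Gria4 the flip transcript (ENSMUST00000063508) made up 13.3% and 14.2% of the gene in B1 and B2 and 51.0% in F. Its level was 2.12 and 2.56 FPKM in layer 4 and 5.66 FPKM in F, where the flop transcript (ENSMUST00000027020) was at 5.43 FPKM against 13.8 and 15.5 FPKM. The 2 transcripts of Gria4 are equally long, 5352 nt, and their intervals did not overlap between F and either layer 4 library. The difference of 37.3 points compares with 0.953 points between B1 and B2 (limma, adjusted p = 0.772). Of the 2 transcripts the flop form was precise and the flip form was not.

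For Gria2 the flip transcript was at 26.8% and 31.1% in layer 4 and 41.5% in F, a difference of 12.6 points from the layer 4 mean, with 4.27 points between the layer 4 libraries. For Gria1 the flip transcripts made up 24.1% and 32.9% of flip plus flop FPKM in layer 4 and 53.5% in F, a difference of 24.99 points against 8.82 points between B1 and B2. Gria1 also has short models that hold neither exon, so that flip and flop together held 46.0% and 51.8% of its FPKM in layer 4 and 38.2% in F. In all 3 genes the flip share was lowest in C, at 11.3% for Gria1, 17.2% for Gria2 and 7.26% for Gria4. In library D it was 22.2%, 18.6% and 7.99%. In E it was 35.6%, 27.9% and 17.9%, between D and F. The superficial library A had the highest flip share of the 7, at 84.4%, 67.0% and 63.8%, and F had the second highest in each of the 3 genes. Gria3 could not be compared in this way, since none of its listed transcripts holds an exon pair found by this search. Its shorter transcript ENSMUST00000115103 (3081 nt) was at 11.3% and 9.10% in layer 4 and 28.1% in F. The flip and flop grouping was chosen after these values were seen.

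**Figure D2:**
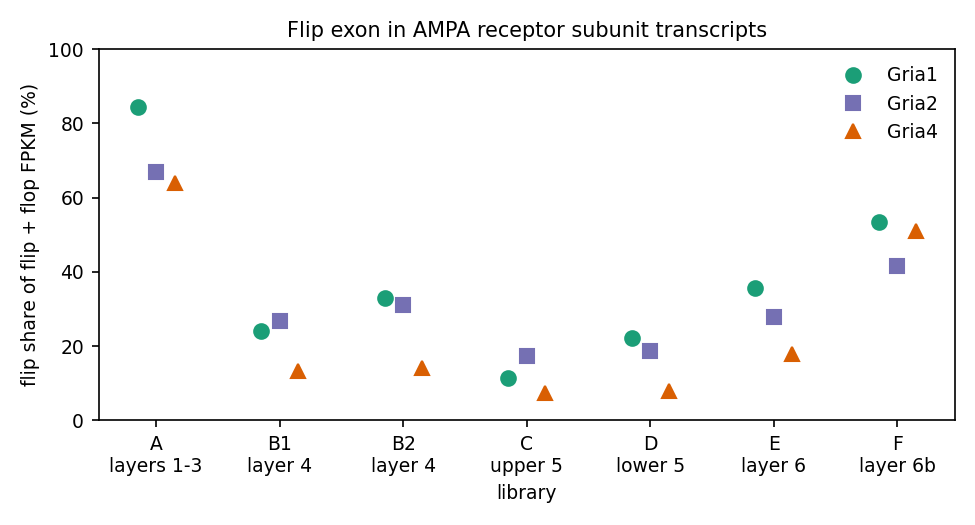
Flip share of the summed FPKM of flip and flop transcripts (vertical axis, percent) in the 7 S1 libraries (horizontal axis, from the surface to the white matter) for Gria1, Gria2 and Gria4; each point is 1 library. All 3 genes are lowest in C, and F (53.5%, 41.5% and 51.0%) lies above both layer 4 libraries in each.

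Of the 11 gene lists used, that of myelin and oligodendrocyte genes had the highest share of its eligible transcripts apart by 10 points. Of 36 eligible transcripts in 15 genes, 17 were apart (47.2%, against 33.4% of all) and 8 in 5 genes were apart by 10 points (22.2%, against 8.21%). Of its 25 precise transcripts these 8 were 32%, against 16.4% of all precise ones. Precision was judged against the mean FPKM over B1, B2 and F. A transcript that is high in F can therefore pass with a wide interval in layer 4. The precise transcript ENSMUST00000115796 of Bin1 was at 4.23 FPKM in B1, with an interval from 2.57 to 5.90 FPKM. The part of this limit in the lead of the list was not tested. The median distance to the nearer layer 4 library was 6.33 points in the list and 4.77 points over all transcripts. The 5 genes (33.3% of 15, against 16.7% of all genes) were Bin1, Gsn, Nfasc, Ermn and Arhgef10. The 8 transcripts are not independent, since Bin1, Nfasc and Ermn each entered with a gaining and a losing transcript. The lists were chosen with earlier results of these data known, so that the rank of this one is a description. The summed level of the 9 oligodendrocyte markers was 14.8 times as high in F as the layer 4 mean.

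Nfasc encodes neurofascin, an adhesion molecule with a glial form, which holds the edges of the myelin sheath to the axon, and a neuronal form, which gathers sodium channels at nodes and at the axon start and carries a threonine-rich, mucin-like stretch. The 2 eligible transcripts differ in this region, which is why their sequences are shown. Capitals mark an exon absent from the other transcript, with 15 adjoining coding bases on each side in lower case (GENCODE M21, GRCm38, minus strand). The transcript ENSMUST00000043189 holds, among others, an exon of 205 nt at chr1:132597765-132597969.
Nfasc ENSMUST00000043189: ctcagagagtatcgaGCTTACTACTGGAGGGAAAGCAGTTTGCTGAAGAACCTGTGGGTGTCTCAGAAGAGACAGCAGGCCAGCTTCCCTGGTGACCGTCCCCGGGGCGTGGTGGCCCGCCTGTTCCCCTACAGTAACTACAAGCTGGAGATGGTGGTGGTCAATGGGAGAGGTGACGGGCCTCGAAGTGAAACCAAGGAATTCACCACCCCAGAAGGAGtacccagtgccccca
The transcript ENSMUST00000094569 holds instead, among others, an exon of 237 nt at chr1:132588074-132588310, in which 33 of 78 whole codons encode threonine.
Nfasc ENSMUST00000094569: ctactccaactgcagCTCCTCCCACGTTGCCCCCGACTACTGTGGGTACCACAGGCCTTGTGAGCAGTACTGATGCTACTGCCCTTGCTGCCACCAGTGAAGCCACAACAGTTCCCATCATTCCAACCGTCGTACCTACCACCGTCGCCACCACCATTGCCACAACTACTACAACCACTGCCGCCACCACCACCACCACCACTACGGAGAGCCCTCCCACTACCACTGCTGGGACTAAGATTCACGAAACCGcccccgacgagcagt
The form without the threonine-rich exon was at 32.1% and 23.9% in layer 4 and 58.4% in F, where it was the main transcript. Its level was 10.1 and 4.25 FPKM in B1 and B2 and 33.6 FPKM in F, while the form with that exon was at 21.3, 13.5 and 23.9 FPKM. D (37.5%) and E (38.1%) lay between layer 4 and F, C (30.7%) lay within the range of layer 4, and A was lowest with 18.9%.

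Bin1, a protein that bends membranes, has 3 eligible transcripts. The shortest, ENSMUST00000115796 (1944 nt), was at 5.20% and 14.6% in layer 4 and 59.4% in F. In FPKM it was at 4.23, 12.5 and 83.3. The longest, ENSMUST00000025239 (2406 nt), was at nearly the same level in F (44.1 FPKM) as in B1 (43.8 FPKM) and below B2 (59.9 FPKM), so that its share was 31.5% in F against 53.8% and 69.8%. The higher gene level in F, 140 FPKM against 81.4 and 85.7 FPKM, came with the short transcript. In the other segments its share was 10.9% in A, 11.2% in C, 11.4% in D and 27.7% in E.

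Gsn encodes gelsolin, which severs actin filaments. Its transcript ENSMUST00000028239, which starts inside the gene, 25950 bases after ENSMUST00000113016, was at 54.1% and 46.5% in layer 4 and 90.7% in F. Its level was 7.10 and 4.52 FPKM in B1 and B2 and 95.03 FPKM in F, and that of the upstream form was 3.72, 5.20 and 9.77 FPKM. Ermn, which encodes the myelin protein ermin, had its long transcript ENSMUST00000090940 (3635 nt) at 48.1% and 44.4% in layer 4 and 60.02% in F, and D (67.2%) and E (62.8%) lay at or above F. ENSMUST00000084207 of Arhgef10, a guanine nucleotide exchange factor, was at 59.8%, 72.2% and 87.9%. Ermn and Arhgef10 were named after their values were seen.

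The other glial and vascular lists were short. Of 17 astrocyte transcripts in 7 genes, 8 were apart (47.1%, against 33.4% of all) and none was apart by 10 points, in a list whose median distance was 3.75 points. The microglial list had 2 of 6 transcripts apart (33.3%) and 1 apart by 10 points (16.7%, against 8.21% of all), which was also its 1 precise transcript, ENSMUST00000024791 of Trem2, a lipid-sensing receptor of microglia, with 81.2% and 73.0% in layer 4 and 91.4% in F. The endothelial list had 6 of 12 apart (50%) and 1 of 12, of which 5 were precise, apart by 10 points (8.33%), ENSMUST00000001995 of Vwf, the von Willebrand factor, at 31.1% and 20.1% in layer 4 and 57.4% in F. That difference of 31.8 points was 5.595 points when only transcripts listed in all 3 libraries entered the sum. None of 12 striatal transcripts, of which 4 were precise, was apart by 10 points. None of 7 layer 6b transcripts was either, but only 1 of them was precise and could be counted.

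**Figure D3:**
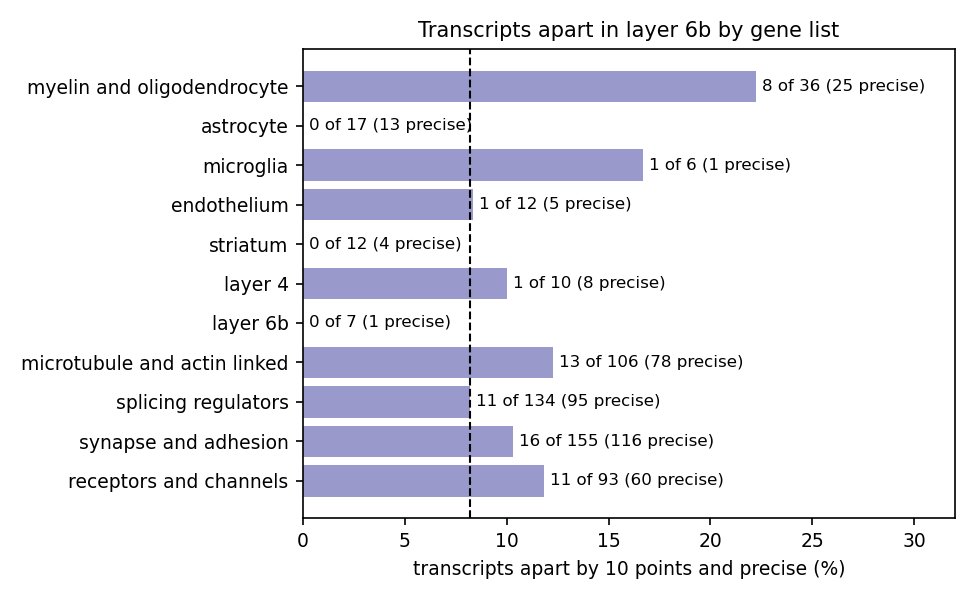
Percent of eligible transcripts that were precise and apart by 10 points (horizontal axis) in each of 11 gene lists (vertical axis), with counts of all and of precise transcripts at the bars; the dashed line is the 8.21% of all transcripts. Myelin and oligodendrocyte genes are highest with 8 of 36, and no astrocyte, striatal or layer 6b transcript was counted.

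Genes that act on microtubules and actin gave 13 of 106 transcripts apart by 10 points (12.3%, against 8.21% of all), in 11 of 37 genes (29.7%, against 16.7%). Of their precise transcripts it was 13 of 78 (16.7%), close to the 16.4% of all. The most marked was Map4 (Mtap4), a protein that coats and stabilises microtubules, at chr9:109833962-109986450 (mm9, plus strand). The transcript ENSMUST00000065171 (4823 nt) starts 120705 bases downstream of the other 2, at chr9:109954667-109986450. It was at 71.9% and 66.0% of the gene in layer 4 and 18.9% in F. ENSMUST00000072772 (5970 nt) was at 19.4% and 19.8% in layer 4 and 61.4% in F, and ENSMUST00000035055 (6084 nt) was at 8.69% and 14.2% against 19.7%. In levels, the downstream form was at 44.1, 31.2 and 19.0 FPKM in B1, B2 and F, and ENSMUST00000072772 was at 11.9, 9.35 and 61.8 FPKM, all with intervals that did not overlap between F and layer 4. The summed FPKM of the gene was 61.3, 47.3 and 101. The shares of these 2 transcripts were graded through the depth of the cortex. The downstream form was at 59.6% in C, 49.8% in D and 34.1% in E, and ENSMUST00000072772 was at 27.0%, 37.2% and 47.5%. In A they were at 68.9% and 13.2%, near layer 4.

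Other genes of this list differed less. Kif2a, a kinesin that takes microtubules apart, had its transcript ENSMUST00000022204 at 56.2% and 63.6% in layer 4 and 38.4% in F. Mapre2, which binds growing microtubule ends, had ENSMUST00000025127 at 76.4% and 66.3% against 47.4%, but its difference of -23.9 points was -11.9 points over the transcripts listed in all 3 libraries. Klc1, a kinesin light chain, Dclk1, a microtubule-binding kinase, and Ank3, ankyrin-G of the axon start, were named after their values were seen. ENSMUST00000118471 of Klc1 was at 84.3% and 78.2% in layer 4 and 66.2% in F, ENSMUST00000070418 of Dclk1 at 25.9% and 28.5% against 39.97%, and ENSMUST00000054167 of Ank3 at 21.2% and 19.2% against 31.7%.

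Among synapse and adhesion genes 16 of 155 transcripts (10.3%) in 13 of 51 genes (25.5%) were apart by 10 points. Among receptors and channels it was 11 of 93 (11.8%) in 8 of 37 genes (21.6%), against 8.21% of all transcripts and 16.7% of all genes. A gene counted with any such transcript, so that the gene shares of the lists also depend on the number of precise transcripts per gene. Of the precise transcripts these were 16 of 116 (13.8%) and 11 of 60 (18.3%), below and above the 16.4% of all. Gphn encodes gephyrin, which anchors glycine and GABA receptors at inhibitory synapses. Its 2 eligible transcripts differ in small exons, shown here in capitals between 15 adjoining coding bases on each side (GENCODE M21, GRCm38, plus strand). The models there are again longer than the measured ones, 3300 against 3190 nt for ENSMUST00000110388 and 3570 against 3181 nt for ENSMUST00000052472. ENSMUST00000110388 holds an exon of 108 nt at chr12:78493950-78494057.
Gphn ENSMUST00000110388: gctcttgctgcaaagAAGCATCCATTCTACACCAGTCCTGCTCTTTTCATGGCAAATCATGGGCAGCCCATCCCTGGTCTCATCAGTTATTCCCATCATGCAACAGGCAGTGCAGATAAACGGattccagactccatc
ENSMUST00000052472 holds instead 99 nt in 2 exons between chr12:78522898-78532698.
Gphn ENSMUST00000052472: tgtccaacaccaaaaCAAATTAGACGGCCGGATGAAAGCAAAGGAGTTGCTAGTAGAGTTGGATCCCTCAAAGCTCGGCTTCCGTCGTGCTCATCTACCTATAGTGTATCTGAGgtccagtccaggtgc
The transcript with the 108-nt exon was at 11.02% and 18.3% in layer 4 and 48.6% in F. Its level was 1.64 and 2.96 FPKM against 10.7 FPKM, while the other form was at 13.2 and 13.2 FPKM in layer 4 and 11.4 FPKM in F. E was at 41.4%, D at 21.9%, C at 25.7% and A at 42.2%.

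ENSMUST00000147226 of Adgrl3, a latrophilin, an adhesion receptor that pairs with partners across the synapse, was at 43.5% and 40.9% in layer 4 and 13.2% in F. The annotation calls it a retained intron. Cntn1 encodes contactin, an adhesion molecule of axons. Its transcript ENSMUST00000068378 was at 24.6% and 24.4% in layer 4 and 43.8% in F, with E at 39.4%, C at 36.9% and D at 35.9% (named after its values were seen). Shank2, a scaffold of excitatory synapses, had ENSMUST00000105900 at 29.6% and 37.5% in layer 4, 10.6% in E and 6.06% in F, also named afterwards. ENSMUST00000077489 of Scn1a, a sodium channel of fast-spiking interneurons, was at 67.0% and 73.6% against 46.6% in F. This rests partly on transcripts listed in F alone, and with the 3 libraries' common transcripts as the sum the difference of -23.7 points was -8.82 points.

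Of 134 transcripts of splicing regulators 11 were apart by 10 points (8.21%), in 10 of 42 genes (23.8%, against 16.7% of all). Of their precise transcripts it was 11 of 95 (11.6%, against 16.4% of all). Srsf6, an SR protein that binds exonic enhancers, had its coding transcript ENSMUST00000130411 at 65.5% and 74.2% in layer 4 and 45.8% in F. The other one, ENSMUST00000017065, is annotated as a target of nonsense-mediated decay, and was at 34.5% and 25.8% in layer 4 and 54.2% in F. It was at 4.38 and 4.06 FPKM in layer 4 and 11.01 FPKM in F. ENSMUST00000077817 of Hnrnph1, an RNA-binding repressor and activator of splicing, was at 38.5% and 35.0% against 10.5% in F. None of the 6 eligible transcripts of Ewsr1, which encodes an RNA-binding protein, was apart. The widest spread among them, for ENSMUST00000102930, ran from 15.6% in B1 to 4.15% in B2 with F at 11.02%. Osbp2 had 1 transcript listed in all 3 libraries, ENSMUST00000101633, and was therefore not eligible. That transcript was at 38.5 and 24.5 FPKM in layer 4 and 4.70 FPKM in F.

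The largest shifts among protein-coding genes with at least 5 FPKM in each library were led by Rcan2, a regulator of the phosphatase calcineurin. Its transcript ENSMUST00000044792 (3237 nt, chr17:44090140-44176465, mm9, plus strand) starts downstream of the other 2. It was at 20.8% and 19.1% in layer 4 and 82.2% in F, or 19.1, 18.6 and 80.1 FPKM, while the gene as a whole was level at 91.9, 97.4 and 97.5 FPKM. The share was 51.7% in C, 68.7% in D and 72.9% in E, and 21.7% in A. The other 2 forms had their own difference between the litters. ENSMUST00000044895 was at 52.0% in B1 and 13.5% in B2, ENSMUST00000113586 at 27.2% and 67.5%, and both were lower in F, at 4.795% and 13.04%.

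Sbf1, a phosphatase-like protein that binds phosphoinositide phosphatases, had its transcript ENSMUST00000081421 at 91.6% and 89.9% in layer 4, 73.6% in E and 43.5% in F. The longer form ENSMUST00000144585 was at 8.41% and 10.1% against 34.9%. Whrn encodes whirlin, a scaffold protein known from the inner ear, and stood on the layer 4 list. Its transcript ENSMUST00000084510 was at 60.2% and 62.0% in layer 4, 16.7% in E and 11.6% in F, and it was not listed in A, C or D. ENSMUST00000102867, which lacks a 33-nt coding exon of the former, was at 6.39% and 11.2% in layer 4 and 52.7% in F. Ezr encodes ezrin, which links actin to the membrane. Its transcript ENSMUST00000085833 was at 35.0% and 47.8% against 91.9%, or 6.73, 6.89 and 14.9 FPKM. These 3 genes also held transcripts that were not listed in all 3 libraries. Over the transcripts listed in all 3, the difference went from -47.2 to -35.2 points for ENSMUST00000081421 of Sbf1. It went from -49.5 to -69.5 points for ENSMUST00000084510 of Whrn and from 50.5 to 46.1 points for ENSMUST00000085833 of Ezr.

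In the remaining 6 genes of this group more of the shift rested on transcripts that were not listed in all 3 libraries. Over the common transcripts the difference went from -44.0 to -0.456 points for ENSMUST00000023608 of Atp5j, a subunit of the ATP synthase, and from 46.1 to 0.581 points for ENSMUST00000033127 of Sergef. For ENSMUST00000047131 of Ipo4, an importin, it went from 44.9 to 9.26 points, and for ENSMUST00000015239 of Fbxw5, an F-box protein, from -45.3 to -13.2 points. For ENSMUST00000028209 of Dolpp1, an enzyme of dolichol recycling, it went from 58.7 to 29.5 points, and for ENSMUST00000045633 of Mybbp1a, a nucleolar protein, from 55.7 to 25.4 points. In all 6 the direction was the same. GENCODE M21 does not place all transcripts of Ipo4 in 1 gene. In Atp5j the transcript itself was at 73.0, 86.3 and 71.8 FPKM in B1, B2 and F, so that its level in F was close to that in B1.

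**Figure D4:**
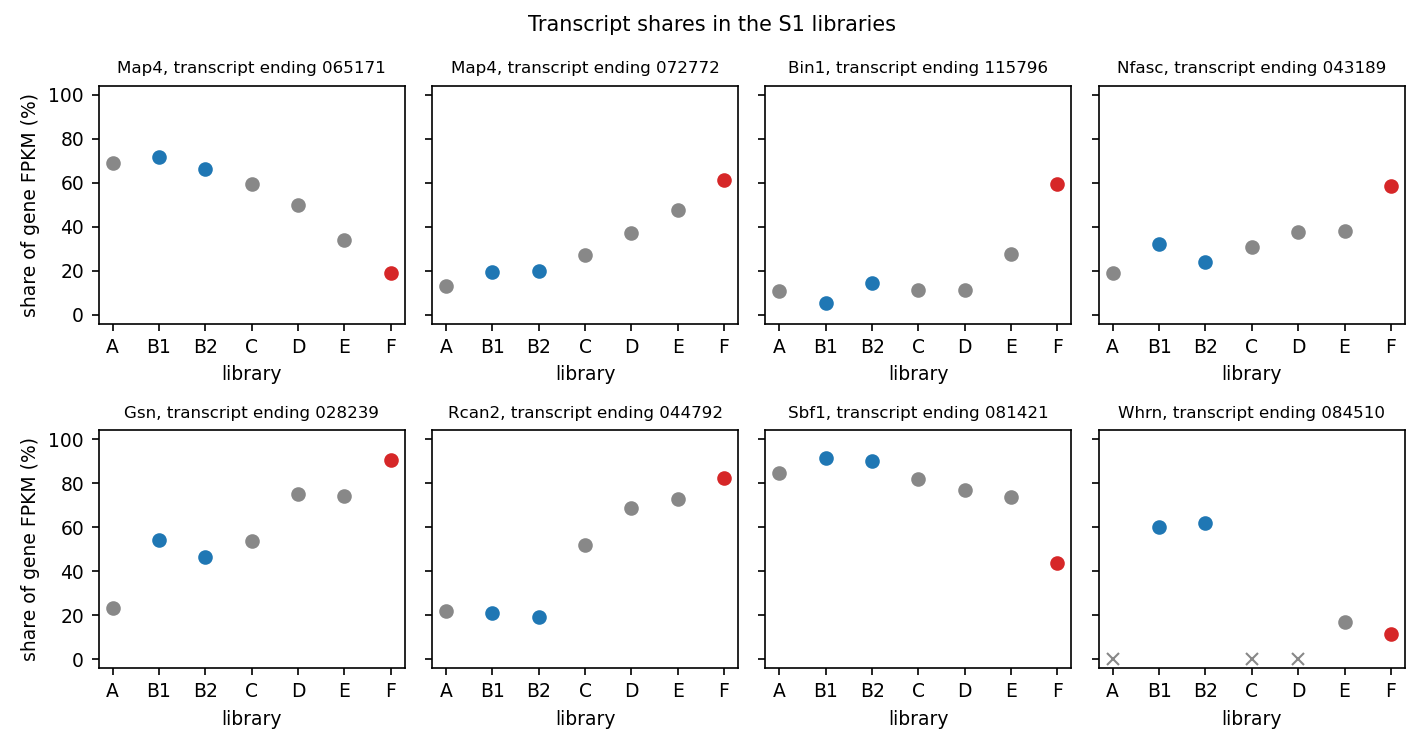
Share of a transcript in the FPKM of its gene (vertical axis, percent) in the 7 S1 libraries (horizontal axis) for 8 transcripts of Map4, Bin1, Nfasc, Gsn, Rcan2, Sbf1 and Whrn; blue points are the layer 4 libraries, red is F, grey the other segments, and a cross marks a library that does not list the transcript. In each panel F lies beyond both blue points, and E lies between them and F in all 8.

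The main transcript, the eligible one with the highest share, was the same in B1 and B2 in 3573 genes (73.5%). In 559 of these (15.6%, and 11.5% of all genes) F had another main transcript. Set against B1 alone, F had another main transcript in 1227 genes, and against B2 alone in 1272. The same count with B1 or B2 as the lone library was not made, so that 559 cannot be read as an excess. In 215 of the 559 genes (4.42% of all genes) both main transcripts were precise. The 6 such genes of highest level were Ywhah, Eno2, Nptxr, Rapgef4, Stmn4 and Atp5d. In 4 of them the litters differed by more than F did from the nearer litter in the main transcript of layer 4. For Ywhah, an adaptor protein, ENSMUST00000019109 was at 77.8% in B1, 52.3% in B2 and 49.3% in F. For Rapgef4, an exchange factor activated by cyclic AMP, ENSMUST00000090826 was at 83.5%, 30.3% and 28.0%. For Stmn4, a stathmin, ENSMUST00000074523 was at 69.8%, 45.3% and 23.6%, and for Eno2, the neuronal enolase, ENSMUST00000004378 was at 37.6%, 48.6% and 29.0%. The main transcript of F in Stmn4, ENSMUST00000120229, was in the stricter set, at 21.0% and 24.6% against 36.2% in F. That of Rapgef4, ENSMUST00000102698, was 22.2 points higher in F than in B1 and 11.3 points higher than in B2. In Ywhah and Eno2 the main transcript of F was closer to the nearer litter than the litters were to each other. In Atp5d, another ATP synthase subunit, ENSMUST00000105366 was at 58.1% and 57.2% in layer 4 and 44.3% in F, and its difference of -13.4 points was -2.25 points in the deposited share within the locus. In Nptxr, the neuronal pentraxin receptor, ENSMUST00000023057 was at 63.2% and 60.8% against 43.7% and ENSMUST00000109627 at 36.8% and 39.2% against 56.3%. These 2 do not overlap, and GENCODE M21 gives the second to the neighbouring gene Cbx6, so that their ratio compares 2 genes of that annotation.

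In 205 genes (4.22%) a transcript was higher in F than in both layer 4 libraries and another was lower, each by intervals that did not overlap. These intervals hold no variation between mice. The same count for B1 against B2 was not made, so that this number has no reference. The 3 of highest level were Snap25, Olfm1 and Rtn1. Snap25 encodes a SNARE protein of synaptic vesicle release and holds a pair of exons of 118 nt, known as 5a and 5b, that share 87 bases; capitals mark the others (GENCODE M21, GRCm38, plus strand, chr2:136769743-136769860 and chr2:136770057-136770174).
Snap25 exon 5a: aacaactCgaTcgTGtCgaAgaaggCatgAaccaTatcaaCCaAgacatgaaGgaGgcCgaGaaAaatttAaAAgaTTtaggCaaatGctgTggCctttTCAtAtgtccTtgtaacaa
Snap25 exon 5b: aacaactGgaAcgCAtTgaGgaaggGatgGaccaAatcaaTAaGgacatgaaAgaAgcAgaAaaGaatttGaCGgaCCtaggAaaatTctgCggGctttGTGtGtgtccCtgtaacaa
The transcript with exon 5b, ENSMUST00000028727, was at 826 and 1090 FPKM in layer 4 and 738 FPKM in F, and the one with exon 5a, ENSMUST00000110098, at 349 and 183 FPKM against 376 FPKM. The intervals of both transcripts also did not overlap between B1 and B2, in opposite directions. In shares, 5a was at 29.7% in B1, 14.4% in B2 and 33.8% in F, so that F was 4.04 points from B1 while the litters were 15.4 points apart, and it does not count as apart. The 2 models also differ in length, 1014 nt for the 5a form and 2116 nt for the 5b form. For Olfm1, a secreted olfactomedin, ENSMUST00000100244 was at 23.5% and 25.02% in layer 4 and 38.5% in F, or 165, 197 and 207 FPKM, and ENSMUST00000102879 was at 55.9% and 58.5% against 48.4%. For Rtn1, a reticulon of the endoplasmic reticulum, ENSMUST00000150156 was at 36.6% in B1, 68.8% in B2 and 33.7% in F.

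The members just inside the limit of 10 points were ENSMUST00000037488 of Dock4, an exchange factor, and ENSMUST00000091087 of Dnm2, a dynamin, at 10.01 and 10.02 points from the nearer library. Just outside were ENSMUST00000051379 of Mtus1 and ENSMUST00000125660 of Guf1, at 9.97 points each.

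By transcript type, 698 of the 998 transcripts were protein-coding, as were 7427 of the 12151 eligible ones. Of these 698, 309 (44.3%) had a higher share in F, close to the 44.8% of all 998. Of 391 transcripts with a retained intron that were apart, 147 (37.6%) had a higher share in F, against 1274 of 2472 protein-coding ones (51.5%) and 2021 of 4059 of all (49.8%). The median share of the 1116 retained-intron transcripts was 17.2% and 17.8% in layer 4, 15.2% in F, 13.8% in C, 13.7% in E, 14.7% in D and 16.8% in A. Eligible transcripts had to be listed in both layer 4 libraries and in F, but not in A, C, D or E. Transcripts that were not listed can therefore lower the medians of A, C, D and E alone. The part of this rule in their distance from layer 4 and F was not tested. Between the transcript with the largest gain and that with the largest loss in F, both ends differed by over 50 nt in 362 of 801 genes (45.2%), the start alone in 158 (19.7%), the end alone in 170 (21.2%) and neither in 111 (13.9%). Over all 4787 genes with a known strand these proportions were 41.0%, 24.5%, 17.9% and 16.6%. The gaining transcript was the longer one in 41.6% of the 801 genes and in 45.5% of all.

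The genes that held a transcript apart by 10 points were close to all genes in the change of their summed FPKM between layer 4 and F. The median log2 ratio of gene FPKM between F and layer 4 was 0.28 in the 810 genes and 0.27 in all 4863, and 10.99% against 10.4% were at least 2-fold higher in F, and 3.58% against 3.19% at least 2-fold lower.

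The shares of the 998 transcripts in the other segments were set on a scale that B1, B2 and F define. Since the same 3 libraries chose these transcripts, a library on the F side of layer 4 is partly given by the choice, and the positions below are a description. On a scale with the layer 4 mean at 0% and F at 100%, the median position was 38.9% in C, 38.2% in D and 58.5% in E. In A it was -5.30%, and 0.41% over the 908 transcripts listed in all 7 libraries, so that its sign depends on the transcripts not listed. The share in E lay on the F side of the layer 4 mean in 888 transcripts (89.0%), in D in 824 (82.6%), in C in 801 (80.3%) and in A in 477 (47.8%). Of 966 transcripts that were also listed in C, D and E, 133 (13.8%), in 114 genes, had shares that went in the same direction at every step from the layer 4 mean through C, D and E to F. The choice had fixed both ends of this order. The share over all eligible transcripts was not counted, so that this number cannot be read as an excess. Map4, Nfasc, Bin1, Rcan2, Sbf1, Scn1a, Mapre2, Adgrl3 and Sergef were among the genes named above that held such a transcript. Since the first step starts at the mean, it can lie within the spread of the litters. In Nfasc, Bin1 and Mapre2 the share in C lay between B1 and B2.

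**Figure D5:**
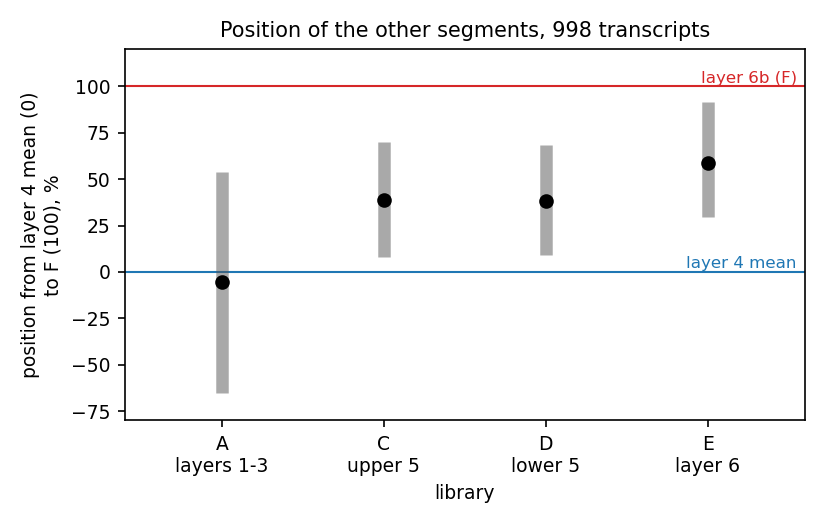
Position of the share in libraries A, C, D and E (horizontal axis) between the layer 4 mean (0, blue line) and F (100, red line), in percent (vertical axis), for 998 transcripts apart by 10 points; points are medians and bars span the middle 50% of transcripts. E is nearest to F with 58.5%, C and D are at 38.9% and 38.2%, and A is at -5.30% (0.41% over transcripts listed in all 7 libraries).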

How the data were processed

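Polyadenylated RNA of 3 S1 libraries was compared, 2 of layer 4 and 1 of layer 6b, with 4 further S1 libraries for reference. The reads used were 50 nt long, and 75 nt in part of F. The submitters' processing notes name TopHat 1.0.13, Cufflinks 0.8.3 and mm9, and the study used Ensembl release 57. The FPKM values were estimated by the authors with cufflinks per transcript and per gene, each with a 95% interval that holds no variation between mice. The fraction values deposited by the authors state how much of a locus each transcript makes up, and how abundant it is beside the main one there. The second is never below 0.05, so that minor transcripts are missing from the files. The coverage values deposited by the authors are read depths of a transcript and were used here to estimate fragment numbers. Depth was taken as the median ratio of coverage to FPKM over long transcripts and is approximate, since it assumes 50 nt reads.

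The files do not pair transcripts with genes. Transcripts were assigned by locus and position (44841), identifier (1612) or FPKM (440), and the sum of transcripts equalled the gene FPKM within 0.2% in 20157 of 20457 genes of F. A transcript that was not listed was taken as 0. Symbols, transcript types and sequences came from GENCODE M21 (GRCm38) by identifier, and positions of whole transcripts are those of the files (mm9). The log2 ratio of a transcript to the rest of its gene, with 0.1 FPKM added, was tested with limma 3.58.1 in R 4.3.3 (F against layer 4, empirical Bayes with trend, Benjamini-Hochberg adjustment over 12151 transcripts), which was also tested on simulated data. The p-values rest on the spread between the 2 litter pools only. The empirical Bayes step draws the spread of each transcript toward that of the others, so that a p-value does not measure the litter spread of its own transcript alone.

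Named were the 12 protein-coding genes with the largest distance and at least 5 FPKM in each library, up to 3 genes per list, the 6 highest genes with another main transcript, the 3 highest with opposite intervals, the transcripts next to the limit, and Map4, Osbp2 and Ewsr1. The members, the 11 gene lists and this rule were chosen with earlier results of these data known. The de novo models were not used here. Some genes that the rule names are not reported here.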

Additional observations from a re-analysis of the deposited data

How the results depend on the processing

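No paired analysis was possible because F pools both litters and has no replicate number that it shares with B1 or B2. The count of transcripts apart (4059) was 1965 over precise transcripts alone. The 998 transcripts apart by 10 points were 515 with intervals of at most 25% and 1588 with at most 100% of the mean, 1539 at 5 points and 324 at 20 points. With either layer 4 library left out, so that the litters no longer limited the call, they were 2581 to 2644, the genes with another main transcript (559) were 1227 to 1272, and the genes with opposite intervals (205) were 644 to 742. Genes with another main transcript were 215 with both precise, and those with opposite intervals were 77 with intervals widened 2 times. All other alternatives for these counts stayed within 1.5 times, among them 949 transcripts apart by 10 points (454 higher, 495 lower) over transcripts listed in all 3 libraries, 757 with the deposited share within the locus, and 985 without the 53 genes that GENCODE M21 splits. The last of these, the genes whose FPKM equals the sum of their transcripts, the precise main transcripts and the transcripts listed in all 7 libraries were chosen after seeing the data. limma called 0 transcripts in the main test and in each of 6 alternatives, with 271 to 888 at an unadjusted p under 0.05, and without a layer 4 library it has no residual degrees of freedom and was not run.

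Among the named transcripts the difference of ENSMUST00000072856 of Eno2 turned from -6.05 to 1.62 points over the common transcripts and to 0.734 points with the deposited share. For Ewsr1 the difference ran from -0.0311 to 2.24 points (ENSMUST00000073308), from -4.54 to 6.87 (ENSMUST00000102930), from -4.98 to 0.204 (ENSMUST00000139886) and from -0.578 to 4.16 (ENSMUST00000144238) when a layer 4 library was left out. The cause was not tested. With 1 library of layer 6b, the spread of that layer is unknown.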
